A study of Homo sapiens with 6 samples.

Results

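Vimentin (VIM), the keratins KRT7, KRT8, KRT18, KRT19 and KRT80, and the transcription factors SNAI2 and ZEB1 were followed across 6 libraries of ribosome-bound mRNA from a breast cancer cell line. They were chosen by name, as intermediate filament genes and mesenchymal factors, with earlier results of these data known. They make up 8 of the 21619 genes counted. KRT7, KRT8, KRT18 and KRT80 lie on chromosome 12, KRT19 on chromosome 17, VIM and ZEB1 on chromosome 10 and SNAI2 on chromosome 8. All 8 passed the filter on low counts. The cells were of the MDA-MB-231 line, which comes from a triple-negative human breast cancer and was engineered to carry ribosomal protein L10a with an EGFP tag. All cultures, controls included, carried the tag and were held in 0.2% serum for 24 h. They then received no factor (untreated), the chemokine CXCL12 at 30 ng/mL with the growth factor IGF1 at 10 ng/mL (lower dose), or 300 ng/mL CXCL12 with 100 ng/mL IGF1 (higher dose) for 6 h. Each of the 3 groups had 2 libraries, a and b, which the labels call biological replicates. RNA was recovered through the tag by translating ribosome affinity purification (TRAP), in which anti-GFP beads capture the tagged ribosomes and the mRNA on them. No source used here gives the promoter of the tagged protein or says whether the line is 1 clone.

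Intermediate filaments are rope-like polymers of the cytoplasm and nucleus. Keratins form them as obligate pairs of an acidic type I and a basic type II chain. KRT8 and KRT18 are the pair of simple epithelia. KRT7 is a type II keratin and KRT19 a type I keratin of ducts and glands, and KRT80 is a type II keratin found in many epithelia. Vimentin polymerises with itself and is the typical filament protein of mesenchymal cells. Carcinoma cells that pass through the epithelial-mesenchymal transition (EMT) gain vimentin, and MDA-MB-231 cells make vimentin and keratins side by side. SNAI2 (Slug) and ZEB1 are zinc finger repressors that bind E-box sequences in epithelial genes such as CDH1 (E-cadherin) and drive that transition.

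Reads on genes came to between 26255079 and 30280322 per library. Levels are given in counts scaled to library size (CPM) after TMM scaling, a normalisation that takes most genes as unchanged. A count of 0 allows up to 3 reads, or 0.0991 to 0.114 CPM, and this covers counting error only. The line was checked against its known markers. AXL had 1000 to 1204 CPM and CD44 741 to 940 CPM, while ESR1 and PGR had at most 5 reads in any library and CDH1 at most 13. FOXA1 had at most 3 reads, KRT14 at most 2 and KRT5 none. ERBB2 (54.3 to 77.2 CPM), EPCAM (11.3 to 13.6 CPM) and GATA3 (9.39 to 11.03 CPM) were present. A list of 10 markers of leukocytes, endothelium, liver, red cells, muscle and fibroblasts summed to 8.37 to 9.66 CPM per library. Of the 3 that could be tested, 0 passed in any comparison with edgeR or DESeq2, and at an unadjusted p under 0.05 the count was 1, a lower level, in each comparison of the higher dose. COL1A1 had 5.95 to 7.20 CPM of that sum, and CD3E had no read.

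The E-box bound by SNAI and ZEB factors reads CACCTG on one strand and CAGGTG on the other. It was searched for in the 250 bases upstream of each RefSeq gene start in build GRCh38.p14, where 17.5% of 35116 windows held it. Windows were at hand for VIM, KRT8 and ZEB1. The VIM window, chr10:17227991-17228240 on the plus strand, held no match, and neither did the KRT8 window, which belongs to a start 19851 bases upstream of the principal one. ZEB1 had 7 windows, of which 2 held the E-box. The VIM window and the ZEB1 window that lies furthest upstream, chr10:31318167-31318416 on the plus strand, are shown. They let the reader compare the most abundant member with an E-box factor. Capitals mark the E-box, which begins 57 bases before that ZEB1 start. That start lies 708 bases upstream of the principal one. The other ZEB1 window with the E-box, chr10:31318966-31319215, held 2 matches and is not shown. It lies wholly in annotated exons, and its start is 91 bases downstream of the principal one. A match describes the letters only, and binding was not measured here.
VIM: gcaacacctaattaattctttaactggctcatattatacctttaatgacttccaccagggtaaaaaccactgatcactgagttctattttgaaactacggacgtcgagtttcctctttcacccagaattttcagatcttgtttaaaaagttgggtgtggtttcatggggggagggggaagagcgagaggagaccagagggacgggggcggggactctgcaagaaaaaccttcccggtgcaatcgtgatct
ZEB1: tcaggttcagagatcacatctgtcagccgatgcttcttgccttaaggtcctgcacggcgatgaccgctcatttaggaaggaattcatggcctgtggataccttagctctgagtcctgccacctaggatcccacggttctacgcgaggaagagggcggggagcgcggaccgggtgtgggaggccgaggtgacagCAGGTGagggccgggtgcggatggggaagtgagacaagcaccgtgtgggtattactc

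At the lower dose, VIM, KRT8, KRT18, KRT19 and KRT80 fell, SNAI2 rose, and KRT7 and ZEB1 did not pass the test. At the higher dose, VIM, KRT8, KRT18, KRT80 and ZEB1 fell, SNAI2 rose, and KRT7 and KRT19 did not pass. The changes were small, with the largest a fall of 26.8% for VIM. At the lower dose 6 of 8 members passed, 1 up and 5 down, where 32.6% of the 13548 genes tested passed, 16.7% up and 15.9% down. At the higher dose 6 of 8 passed, again 1 up and 5 down, where 56.3% of genes passed, 28.1% up and 28.2% down. At that background a pass at the higher dose is common, and the share of members passing says little about them. The premise of TMM scaling, that most genes are unchanged, need not hold there either. Levels and changes are relative to the library, so a change in the total of ribosome-bound mRNA would not show. The median log2 fold change of the members was −0.15 at the lower dose and −0.22 at the higher dose, beside −0.002 and −0.001 for all genes tested. As the members were chosen with earlier results of these data known, these medians are a description only. Tests were quasi-likelihood F tests in edgeR with Benjamini-Hochberg adjustment over all genes tested and a threshold of 0.05. Both doses were set against the same untreated libraries. Replicates varied little (an estimated biological coefficient of variation of 1.79%), so small differences pass. The p-values set a difference against the spread between the 2 libraries of a group. That spread was shared by the 3 groups and estimated with help from all genes tested. RNA of the whole cell was not analysed here, so abundance, ribosome loading and recovery of an mRNA cannot be told apart, nor can the contributions of CXCL12 and IGF1.

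**Figure D1:**
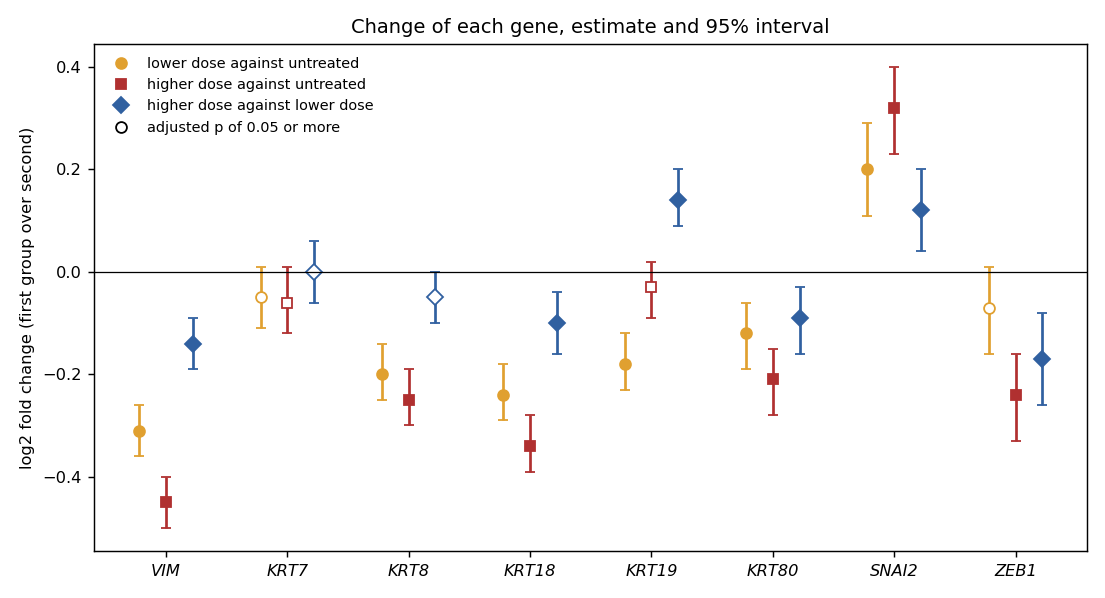
Log2 fold changes (vertical axis) of the 8 members in the 3 comparisons, with 95% intervals from the edgeR standard errors, a line at zero and open symbols for an adjusted p of 0.05 or more. At the higher dose against untreated cells VIM lies lowest (−0.45) and SNAI2 highest (0.32), and KRT19 lies above zero (0.14) where the doses are compared.

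VIM was by far the most abundant member and fell stepwise with dose. Untreated cells had 3747.7 and 3588.2 CPM, lower dose cells 2952.5 and 2982.7 CPM, and higher dose cells 2690.0 and 2680.3 CPM. The 3 groups did not overlap, and every higher dose library lay below every lower dose library. The share of all tested genes with such a separation was not counted. With 2 libraries per group separation alone says little, for VIM as for the other members. ZEB1 at the lower dose and KRT8 between the doses also kept their groups apart without passing the test. VIM fell by 19.1% at the lower dose (log2 fold change −0.31 ± 0.03 SE, edgeR adjusted p = 5.3e-14) and fell by 26.8% at the higher dose (−0.45 ± 0.03, adjusted p = 1.09e-21). The higher dose was also below the lower dose, by a log2 fold change of −0.14 ± 0.03 (edgeR adjusted p = 9.14e-06). At the lower dose 6.23% of tested genes had a more negative log2 fold change than VIM. VIM mRNA took 0.268 ± 0.00048% of gene reads at the higher dose and 0.367 ± 0.011% in untreated cells (SD, n = 2 each), which put it 8th by mean CPM among all genes.

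**Figure D2:**
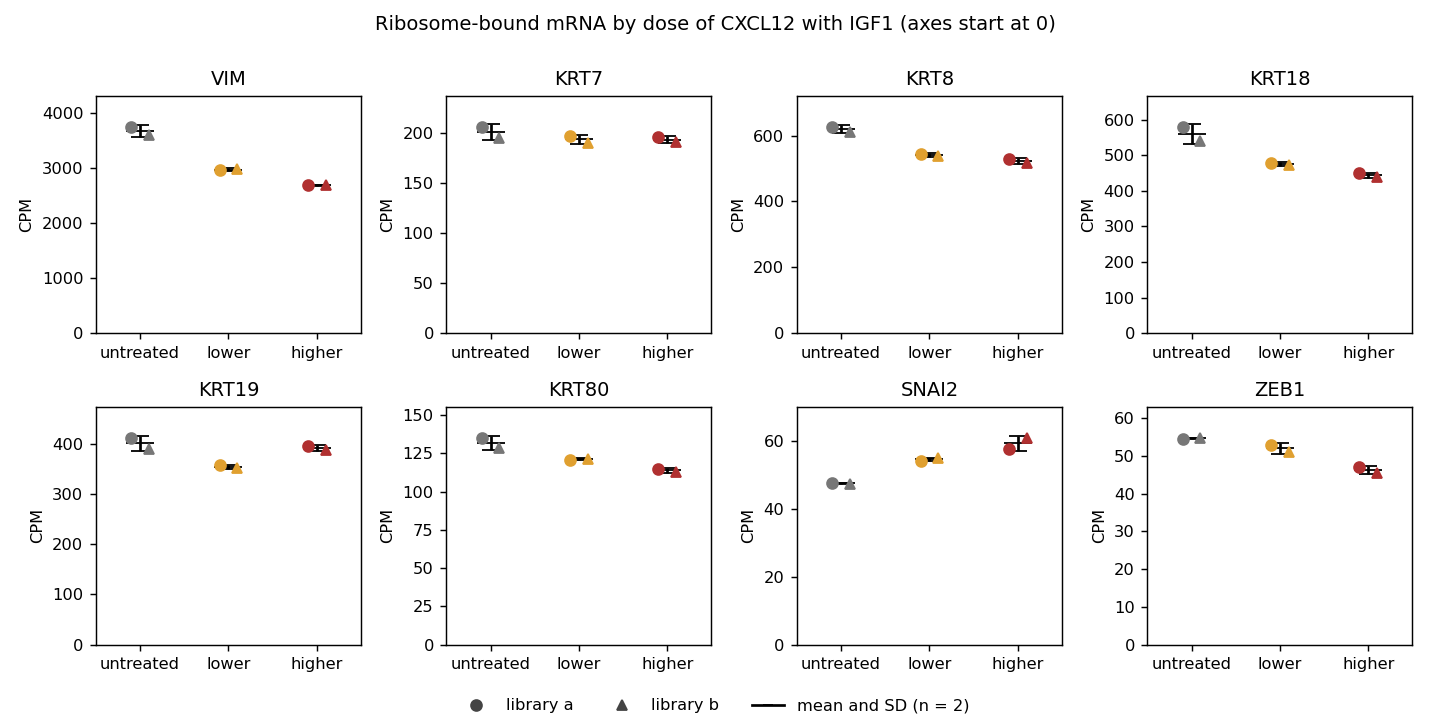
CPM of each of the 8 members (vertical axes, from 0) in untreated, lower dose and higher dose cells, with libraries a and b as points and the mean and SD. VIM steps down at each dose, SNAI2 steps up, KRT7 stays within 191 to 207 CPM, and KRT19 dips at the lower dose alone.

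The KRT8 and KRT18 pair fell at both doses. KRT8, the type II partner, had 627 and 611 CPM in the untreated libraries, 544 and 537 CPM at the lower dose and 529 and 516 CPM at the higher dose. Neither dosed group overlapped with untreated cells. KRT8 fell by 12.7% at the lower dose (log2 fold change −0.20 ± 0.03 SE, edgeR adjusted p = 4.58e-08) and fell by 15.7% at the higher dose (−0.25 ± 0.03, adjusted p = 1.58e-11). Between the doses its log2 fold change was −0.05 ± 0.03 (95% interval −0.10 to 0.00, edgeR adjusted p = 0.15). KRT18, the type I partner, had 580.5 and 541 CPM in the untreated libraries, 479 and 472 CPM at the lower dose and 449 and 439 CPM at the higher dose. The 3 groups of KRT18 did not overlap. KRT18 fell by 15.2% at the lower dose (−0.24 ± 0.03, edgeR adjusted p = 2e-09) and fell by 20.8% at the higher dose (−0.34 ± 0.03, adjusted p = 5.35e-15). The step between the doses passed (−0.10 ± 0.03, edgeR adjusted p = 0.0055), but not without lower dose a (adjusted p = 0.0548) or without higher dose b (adjusted p = 0.117).

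KRT8 and KRT18 have many processed pseudogenes, which can draw reads with no unique position. RefSeq names 52 pseudogene loci by the KRT8 symbol and 68 by that of KRT18, and KRT8P41 and KRT18P55, each 1 of these, had 4 and 9 reads over all 6 libraries. Reads without a unique position were 2.62% to 2.88% of a library and were not counted to genes. KRT8 and KRT18 also overlap in RefSeq. Reads that could not be given to a single gene were left out of the counts (1.87% to 2.08% of a library). Whether reads of KRT8 and KRT18 were among them is not known, since the annotation and mode used for counting are not given. How large a share of KRT8 and KRT18 reads was left out in these ways was not measured, so the levels of both are uncertain. The share of reads not given to a single gene was higher at each dose. It was 1.87% and 1.9% in the untreated libraries, 1.98% and 1.97% at the lower dose and 2.06% and 2.08% at the higher dose. Whether this bears on the falls of KRT8 and KRT18 was not tested. VIM and KRT7 overlap the antisense genes VIM-AS1 and KRT7-AS in RefSeq, whose reads cannot be told apart from theirs without strand.

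KRT19, the other abundant type I keratin, followed no dose order. Its libraries had 412 and 391 CPM untreated, 358 and 352 CPM at the lower dose and 396 and 388 CPM at the higher dose. The lower dose libraries were the lowest of all, and those of the higher dose overlapped with untreated. KRT19 fell by 11.6% at the lower dose (log2 fold change −0.18 ± 0.03 SE, edgeR adjusted p = 1.29e-06), while the higher dose differed from untreated cells by −0.03 ± 0.03 (95% interval −0.09 to 0.02, adjusted p = 0.31). The doses themselves differed, with KRT19 higher by 10.4% at the higher dose than at the lower one (0.14 ± 0.03, edgeR adjusted p = 5.35e-05). KRT19 has the shortest transcript of the members, at 1390 bases, and the 1198 genes of its length class, the shortest 10% of those with a known length, changed by a median of 0.10 on the log2 scale at the lower dose and by 0.17 at the higher. After a correction for length and GC content, KRT19 passed as a fall at the higher dose (−0.10, edgeR adjusted p = 0.000585), and it also passed without untreated b (−0.07, adjusted p = 0.0396).

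KRT80 fell at both doses, and KRT7 did not pass the test at either. KRT80, a member of the keratin cluster on chromosome 12, had 135 and 129 CPM in the untreated libraries, 121 and 122 CPM at the lower dose and 115 and 113 CPM at the higher dose. No groups overlapped. It fell by 8.02% at the lower dose (log2 fold change −0.12 ± 0.03 SE, edgeR adjusted p = 0.0033) and fell by 13.7% at the higher dose (−0.21 ± 0.03, adjusted p = 2.63e-07). Correction for length and GC content took the lower dose call away (−0.06, edgeR adjusted p = 0.183), and reduced the higher dose value to −0.11. Without untreated a the lower dose call was lost too (adjusted p = 0.0765). Between the doses KRT80 fell by 0.09 on the log2 scale (edgeR adjusted p = 0.0299), a call lost with DESeq2, with the correction (−0.05, adjusted p = 0.245) and without any 1 of the 4 dosed libraries. KRT7 had 207 and 196 CPM in the untreated libraries, 197 and 191 CPM at the lower dose and 196 and 191 CPM at the higher dose. Its groups overlapped, and the 95% intervals of the log2 fold change ran from −0.11 to 0.01 at the lower dose and from −0.12 to 0.01 at the higher dose (edgeR adjusted p = 0.198 and 0.127). Between the doses that interval ran from −0.06 to 0.06 (adjusted p = 0.964). KRT7 passed as a fall without untreated b at both doses (−0.10 each, edgeR adjusted p = 0.0289 at the lower and 0.0145 at the higher dose), and at the higher dose after the correction (−0.08, adjusted p = 0.0106).

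The EMT repressors moved in opposite directions at the higher dose. SNAI2 had 47.8 and 47.5 CPM in the untreated libraries, 54.4 and 55.0 CPM at the lower dose and 57.8 and 61.1 CPM at the higher dose. Every dosed library exceeded both untreated libraries, and each step kept the groups apart. SNAI2 rose by 14.8% at the lower dose (log2 fold change 0.20 ± 0.04 SE, edgeR adjusted p = 0.000273) and by 24.8% at the higher dose (0.32 ± 0.04, adjusted p = 8.01e-09). With the length and GC correction SNAI2 still passed, at smaller values of 0.14 at the lower dose (edgeR adjusted p = 0.00724) and 0.25 at the higher dose (adjusted p = 3.76e-07). Between the doses it rose by 0.12 ± 0.04 (edgeR adjusted p = 0.0223). That step was lost without lower dose a (adjusted p = 0.105), lower dose b (adjusted p = 0.0639) or higher dose b (adjusted p = 0.298), and the DESeq2 adjusted p was 0.157.

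ZEB1 had 54.5 and 54.8 CPM in the untreated libraries, 52.9 and 51.0 CPM at the lower dose and 46.9 and 45.4 CPM at the higher dose. The higher dose libraries were the lowest. The lower dose differed by −0.07 ± 0.04 SE (95% interval −0.16 to 0.01, edgeR adjusted p = 0.208), and its 2 libraries lay below the untreated ones. At the higher dose ZEB1 fell by 15.5% (−0.24 ± 0.04, edgeR adjusted p = 4.72e-06). The higher dose was 11.2% below the lower one (−0.17 ± 0.04, adjusted p = 0.0018). ZEB1 shares its locus with the antisense gene ZEB1-AS1. Counted as a gene of its own, ZEB1-AS1 had 731 reads over all libraries and rose at the lower dose (0.35 ± 0.14, edgeR adjusted p = 0.0458). It did not pass at the higher dose (0.20 ± 0.14, edgeR adjusted p = 0.228) or between the doses (−0.14 ± 0.13, edgeR adjusted p = 0.438). No source used here says whether strand was used in counting, and without it reads of ZEB1 and ZEB1-AS1 cannot be told apart.

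Between the doses, 6 of 8 members passed, 2 up (KRT19 and SNAI2) and 4 down (VIM, KRT18, KRT80 and ZEB1), where 34.0% of all genes passed, 16.4% up and 17.6% down.

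Levels of different genes were compared per kilobase of transcript. In untreated cells VIM averaged 1718 ± 53 CPM per kb (SD, n = 2), KRT18 359 ± 18, KRT8 291 ± 5.4, KRT19 289 ± 11, KRT7 115 ± 4.5, KRT80 33.9 ± 1.2, SNAI2 23.7 ± 0.11 and ZEB1 8.72 ± 0.029 CPM per kb. KRT8 and KRT19 did not differ beyond their spread in untreated cells. At the lower dose VIM averaged 1390 ± 10 CPM per kb, KRT18 304 ± 3.5, KRT19 255 ± 3.0, KRT8 254 ± 2.4, KRT7 111 ± 2.6, KRT80 31.2 ± 0.11, SNAI2 27.2 ± 0.24 and ZEB1 8.29 ± 0.22 CPM per kb, with KRT19 and KRT8 again within their spread. At the higher dose the order was VIM with 1258 ± 3.2 CPM per kb, KRT18 with 284 ± 4.7, KRT19 with 282 ± 4.3, KRT8 with 246 ± 4.3, KRT7 with 110 ± 2.0, SNAI2 with 29.6 ± 1.2, KRT80 with 29.3 ± 0.45 and ZEB1 with 7.37 ± 0.17. There KRT18 and KRT19, and likewise SNAI2 and KRT80, lay within their spread of each other.

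**Figure D3:**
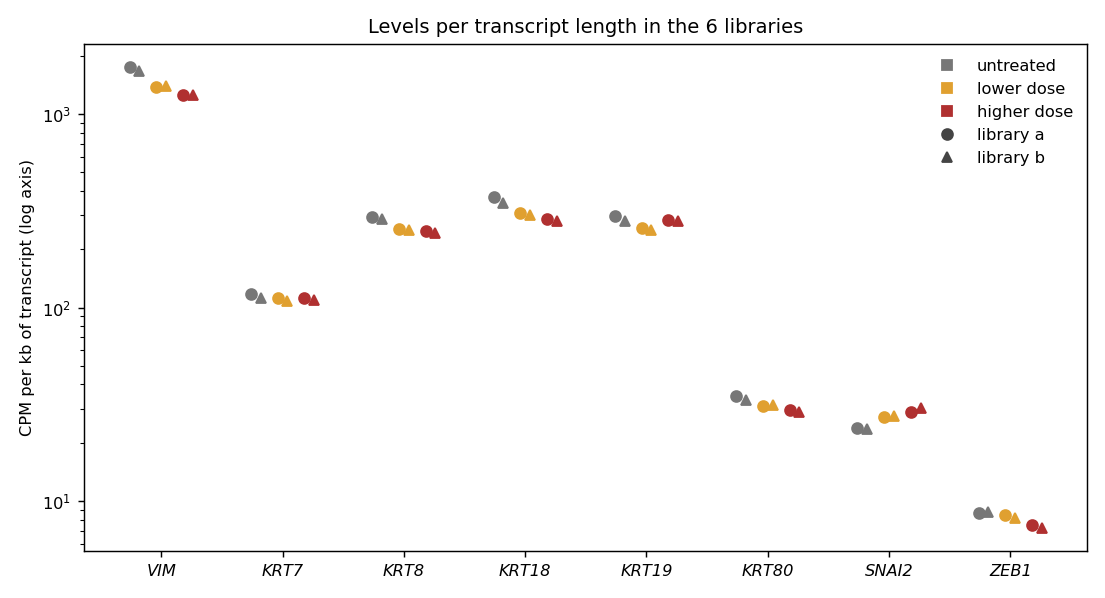
Level of each member in CPM per kb of transcript (logarithmic axis) in untreated, lower dose and higher dose cells, with libraries as points. VIM stands above all keratins in every group, and KRT80 and SNAI2 meet at the higher dose, at 29.3 and 29.6 CPM per kb.

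Ratios within a library need no scaling between libraries. VIM reads per read of the 5 member keratins came to 1.91 and 1.92 in the untreated libraries, 1.74 and 1.78 at the lower dose and 1.60 and 1.63 at the higher dose. VIM was thus lower relative to the keratins at each dose, and the 3 groups were separate. The ratios are given as values, without a test. The ratio of KRT8 to KRT18 was 1.08 and 1.13 in the untreated libraries, 1.14 in both of the lower dose and 1.18 in both of the higher dose. KRT19 per KRT18 came to 0.710 and 0.723 untreated, 0.747 and 0.746 at the lower dose and 0.882 and 0.884 at the higher dose. SNAI2 reads per ZEB1 read were 0.877 and 0.868 untreated, 1.03 and 1.08 at the lower dose and 1.23 and 1.34 at the higher dose. SNAI2 reads were thus fewer than ZEB1 reads in untreated cells and more numerous in dosed cells. This crossing holds for reads only, as the ZEB1 transcript is longer (6267 against 2010 bases). Per kb of transcript SNAI2 lay above ZEB1 in every group, with 23.7 against 8.72 CPM per kb in untreated cells.

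**Figure D4:**
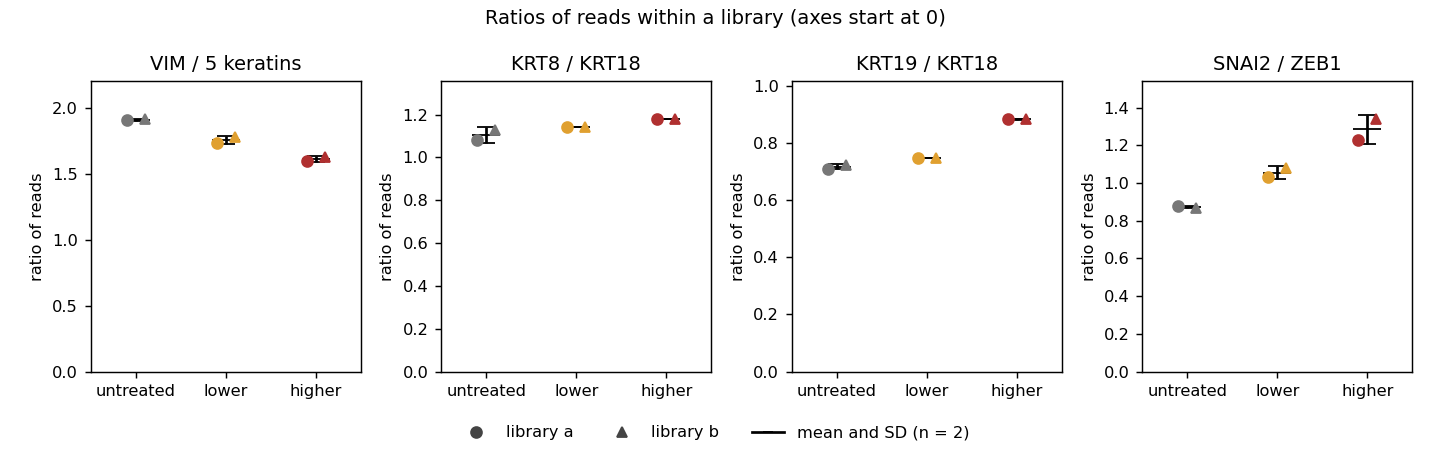
Ratios of reads within each library (vertical axes, from 0) in untreated, lower dose and higher dose cells, with libraries as points and the mean and SD. VIM per keratin read steps down from left to right, while KRT19 per KRT18 and SNAI2 per ZEB1 reach their highest values at the higher dose, 0.882 to 0.884 and 1.23 to 1.34.

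The member keratins held 88.9 ± 0.084% of all keratin reads in untreated cells, 87.2 ± 0.45% at the lower dose and 85.4 ± 0.032% at the higher dose (SD, n = 2 each). Of 50 other keratin genes, 23 had no read in any library and 9 could be tested. At the lower dose 3 of these 9 rose and 2 fell, at the higher dose 5 rose and 0 fell, and between the doses 2 rose and 0 fell (median log2 fold changes 0.00, 0.30 and 0.28). DESeq2 called 1 rise and 0 falls at the lower dose, 2 rises against untreated cells at the higher dose, and 2 between doses, and gave no adjusted p to 2 of the genes that rose in edgeR at each dose against untreated cells. The 5 that rose in edgeR at the higher dose, KRT10, KRT15, KRT33B, KRT34 and KRT39, are all type I keratins of chromosome 17, the cluster that also holds KRT19. Most of the 9 tested lie there, and only KRT81, KRT83 and KRT86 lie on chromosome 12. KRT17, also of chromosome 17, did not pass at the higher dose (0.08 ± 0.28, edgeR adjusted p = 0.834). KRT10, a keratin of differentiating epidermis, had 55.8 and 60.1 CPM untreated, 84.5 and 77.3 CPM at the lower dose and 105 and 110.0 CPM at the higher dose. KRT10 rose by 0.48 ± 0.04 SE on the log2 scale at the lower dose (edgeR adjusted p = 2.53e-13) and by 0.89 ± 0.04 at the higher dose (edgeR adjusted p = 1.74e-25). KRT10 overlaps the antisense gene TMEM99, which rose as well (0.57 at the higher dose), and reads of the pair cannot be told apart without strand. KRT34, a hair keratin, had 3.76 and 3.33 CPM at the higher dose, against 1.90 and 1.88 CPM in untreated cells (0.91 ± 0.17, edgeR adjusted p = 8.08e-06). KRT39 had 0.390 and 0.807 CPM at the higher dose, against 0.0380 and 0.132 CPM in untreated cells, so it rests on few reads, and the call of KRT33B, also rare, was lost without untreated a (edgeR adjusted p = 0.0515), untreated b (0.167) or higher dose a (0.227). KRT86 (−0.20) and KRT81 (−0.11) fell at the lower dose, but these hair keratins are near-identical, their counts are uncertain, and neither passed with DESeq2.

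**Figure D5:**
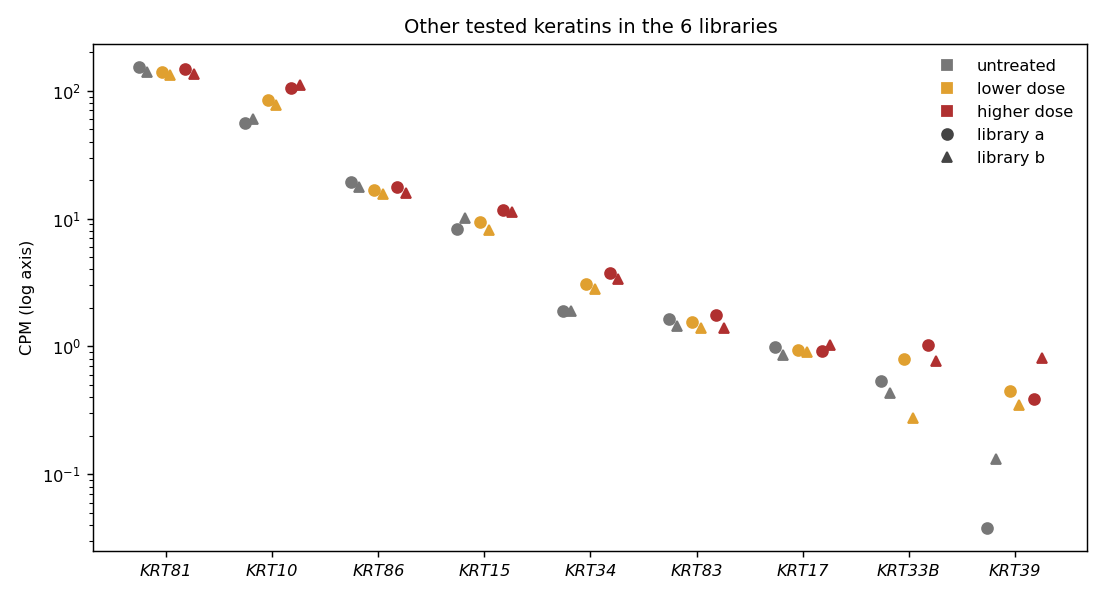
CPM of the 9 testable keratins outside the member list (logarithmic axis) in untreated, lower dose and higher dose cells, with libraries as points. KRT10 climbs to 105 and 110.0 CPM at the higher dose, while KRT81 stays near its untreated level.

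Related genes were counted by list. The counts are read beside the 16.7% of all genes that rose and 15.9% that fell at the lower dose, 28.1% that rose and 28.2% that fell at the higher dose, and 16.4% that rose and 17.6% that fell where the doses were compared. Every count of 0 rises or falls among the keratin, epithelial and mesenchymal lists in edgeR was also 0 with DESeq2 and in edgeR at an unadjusted p under 0.05. Of 11 testable other EMT factors, 1 rose and 2 fell at the lower dose, 1 rose and 3 fell at the higher dose, and 2 rose and 4 fell between the doses (median log2 fold changes 0.06, 0.02 and −0.10). DESeq2 called 0 rises and 1 fall at the lower dose and 2 falls between the doses. TCF3, an E-box binding factor, rose at the higher dose (0.25 ± 0.04, edgeR adjusted p = 6.87e-08), and SOX4 (−0.40 ± 0.05) and ETS1 (−0.20 ± 0.03) were among those that fell. SNAI1, the closest relative of SNAI2, had at most 28 reads in a library, and TWIST1 and TWIST2 had none. ZEB2, the paralog of ZEB1, fell between the doses by −0.24 ± 0.09 (edgeR adjusted p = 0.0323), but did not pass with DESeq2 (adjusted p = 0.216), with the length and GC correction (0.0833), or without lower dose b (0.23) or higher dose a (0.306). Of 16 testable epithelial genes, 0 rose and 1 fell at the lower dose, 0 rose and 8 fell at the higher dose, and 0 rose and 6 fell between the doses (medians −0.09, −0.20 and −0.19). With DESeq2 6 fell at the higher dose against untreated cells and 3 fell between the doses, while 1 and 3 of the genes that fell in edgeR had no DESeq2 adjusted p in these comparisons. ELF3, an epithelial transcription factor (−1.55 ± 0.37), and the mucin MUC1 (−1.07 ± 0.28) fell at the higher dose, with mean levels of 0.318 and 0.687 CPM there. Of 14 testable mesenchymal genes, 1 rose and 8 fell at the lower dose, 2 rose and 9 fell at the higher dose, and 0 rose and 8 fell between the doses (medians −0.08, −0.22 and −0.14). With DESeq2 5 fell at the lower dose and 9 at the higher dose. Fibronectin FN1 had the most negative values of the list against untreated cells, −0.41 ± 0.03 at the lower and −0.67 ± 0.03 at the higher dose (edgeR adjusted p = 4.82e-26). TGFBI, a matrix protein, fell at both doses (−0.30 ± 0.04 and −0.47 ± 0.04), and the cadherin CDH11 fell at the higher dose (−0.37 ± 0.03). TPM1, a tropomyosin, rose at both (0.12 and 0.17), though its lower dose call was lost with the length and GC correction. The second rise at the higher dose was that of the galectin LGALS1 (0.08), which turned to −0.10 with that correction and lost its call without untreated b or higher dose a.

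Among 9263 genes with a mean of at least 10 CPM, likeness to a member was taken as the root-mean-square difference over the 6 libraries between log2 CPM centred on each gene's mean. The genes most like VIM were ECE1 (0.015), SIAE (0.016) and CTSD (0.019), a membrane protease, a sialic acid esterase and a lysosomal protease. The nearest to KRT18 were TGM2 (0.013), SF3A1 (0.013) and TMEM101 (0.014), of which TGM2 is a transglutaminase and SF3A1 a splicing factor. Among the genes most like SNAI2 were SWI5 (0.012), a recombination protein, and SMEK2 (0.019), a phosphatase subunit. The nearest member to VIM was KRT18, at rank 158 with 0.05, and the nearest to KRT18 was KRT8, at rank 147 with 0.041.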

How the data were processed

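The files held whole-number read counts per gene symbol for 6 TRAP libraries. Per the submitters' processing notes, CASAVA 1.8.1, TopHat 1.4.0 and HTSeq were used with build hg19, and the deposited counts carry HTSeq's summary lines. No source used here gives the annotation, the counting mode or the use of strand. The summary lines, 9.40% to 10.2% of a library, were left out. From the counts, 13548 genes passed edgeR's filterByExpr and 8071 did not. The test was that of edgeR 4.0.16 under R 4.3.3 (TMM factors, robust quasi-likelihood fit, 1 mean per group over all 6 libraries, 3 residual degrees of freedom, Benjamini-Hochberg over all genes tested). Standard errors were derived from F (log2 fold change divided by its square root), and CPM are TMM-scaled. Groups and doses came from the treatment labels. The replicates of a group differed by more than counting noise (chi-square per degree of freedom 1.52 to 1.98) and were kept as separate samples. The test was tried on simulated data.

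Alternatives were RLE size factors, library totals, DESeq2 1.42.0, no count filter, a fit of the compared groups only, a replicate block, a correction for length and GC content (known for 88.3% of tested genes), the block with that correction, and leaving out each library. Transcript lengths were those of the longest matched GENCODE transcript on GRCh38, and promoter sequences and gene starts came from RefSeq (GRCh38.p14), from which only promoter windows are given by coordinate. All 8 members are named, and from each other list up to 3 genes in each direction with the largest passing log2 fold changes. Genes named beyond this (SNAI1, the TWIST genes, and KRT10, KRT15 and KRT17 at the higher dose) were added after their values were seen. TMEM99 and ZEB1-AS1 belong to no list and are named as genes that overlap KRT10 and ZEB1. A few genes that this rule names are not reported here. The members and lists were chosen with earlier results of these data known.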

Additional observations from a re-analysis of the deposited data

How the results depend on the processing

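Of 336 combinations of a member, a comparison and an alternative, 313 kept their side of the threshold, 16 lost a call and 7 gained one. No member that passed in either fit changed direction; KRT7 between the doses, which did not pass, ran from −0.03 to 0.02. VIM, KRT8 and SNAI2 kept their calls against untreated cells under all 14 alternatives, as did KRT18, with VIM at −0.34 to −0.28 for the lower dose and −0.48 to −0.42 for the higher. DESeq2 called 2562 genes at the lower dose (4418 with edgeR) and 2758 between the doses (4612 with edgeR); the cause was not tested. Without 1 library, calls ranged from 3165 to 4269 at the lower dose, 6378 to 7631 at the higher dose (7626 with all) and 3247 to 4813 between the doses, and member calls from 5 to 7, 6 to 8 and 3 to 6. The 3 came without lower dose a and without higher dose b. KRT80 lost its lower dose call without untreated a (adjusted p = 0.0765), and its call between the doses with DESeq2 (adjusted p = 0.145) and without any 1 of the 4 dosed libraries (adjusted p = 0.0553 to 0.215). The letters a and b did not pair the libraries (correlations of their deviations −0.085, 0.094 and −0.058 over 9263 genes); a replicate block gave 4320, 7561 and 4516 calls and changed no member call. With the length and GC correction LGALS1, a mesenchymal gene that rose by 0.08 at the higher dose, gave −0.10 (with the block also −0.10). Of 83 results of other named genes, 32 lost the call under at least 1 alternative. KRT10 and KRT15 at the higher dose, TMEM99 and ZEB1-AS1 were not among those results, and their calls were not followed through the alternatives. Depth limits the rarest keratins.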

Other observations

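Genes for proteins that tie filaments to junctions, and for enzymes that act on filaments, were counted as well. Of all genes tested, 16.7% rose and 15.9% fell at the lower dose, and 28.1% rose and 28.2% fell at the higher dose. Between the doses 16.4% rose and 17.6% fell. The counts of every list below are read beside these shares. Of 11 testable plakin and linker genes, 1 rose and 9 fell at the lower dose, 2 rose and 5 fell at the higher dose, and 3 rose and 2 fell between the doses (median log2 fold changes −0.16, −0.06 and −0.01). With DESeq2 5 fell at the lower dose and 5 at the higher dose. Plectin PLEC, which links vimentin and keratin filaments to other structures, had 746 and 786 CPM untreated, 668 and 648 CPM at the lower dose and 759 and 754 CPM at the higher dose. It was higher at the higher than at the lower dose (0.20 ± 0.03, edgeR adjusted p = 2.44e-08), the dose order also seen for KRT19. The plakins EVPL (−0.67 ± 0.06) and PPL (−1.26 ± 0.24, at a mean of 0.882 CPM there) and desmosomal PKP2 (−0.41 ± 0.05) fell at the higher dose. KRTCAP2, listed by its name, is a subunit of the oligosaccharyltransferase and no filament linker; it rose at both doses (0.22 and 0.21), but its higher dose call was lost with the length and GC correction (0.03).

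Of 7 testable other intermediate filament genes, 0 rose and 3 fell at each dose against untreated cells, and 2 rose and 1 fell between the doses. DESeq2 called 0 rises at either dose, with 1 fall at the lower and 3 at the higher. In edgeR at an unadjusted p under 0.05 there were 0 rises at either dose, 3 falls at the lower and 5 at the higher. Lamin A/C, LMNA, had 709 and 688 CPM untreated, 597 and 586 CPM at the lower dose and 586 and 571 CPM at the higher dose (−0.27 ± 0.03 at the higher dose, edgeR adjusted p = 6.48e-13). The lens filament gene BFSP1 (−0.53 ± 0.08) and synemin SYNM (−0.30 ± 0.08, lost with that correction at −0.15, edgeR adjusted p = 0.115) also fell at the higher dose. Of 10 genes for filament kinases and partners, 1 rose and 1 fell at the lower dose, 3 rose and 4 fell at the higher dose, and 2 rose and 1 fell between the doses. These counts lie near the shares of all genes, which were 28.1% up and 28.2% down at the higher dose. With DESeq2 0 rose and 1 fell at the lower dose. PAK1, a kinase that phosphorylates vimentin, rose at the higher dose (0.39 ± 0.06, edgeR adjusted p = 1.04e-07), while its relative PAK2 fell (−0.18 ± 0.03).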
